A study of Mus musculus with 10 samples.

Results

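The 10 genes described here belong to the actin system and were followed in germinal vesicle oocytes with and without Setdb1, out of 24453 gene symbols measured. They are the actins Actb, Actg1 and Actg2, the filament nucleators Fmn2, Spire1 and Spire2, the Arp2/3 subunits Actr2 and Actr3, the small GTPase gene Cdc42 and its effector gene Cdc42ep3. All 10 were picked by name as genes used to move the meiotic spindle and to extrude the polar body. Cdc42ep3 and Actg2 were chosen because their level was low in the mutants, so their difference between genotypes is described here with no test. The other 8 were not chosen for their values, though earlier results of these data were known when they were picked.

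The libraries came from denuded oocytes of C57Bl/6J mice, with 1 pool of 16 oocytes per mouse and 10 mice in all. The mutant group was 4 mice with the genotype Setdb1 f/-; Zp3-cre, which carry 1 floxed and 1 deleted allele of this histone H3 lysine 9 methyltransferase gene and a Cre transgene. The controls were 4 f/+; Zp3-cre mice, which have 1 floxed and 1 wild-type allele and the same Cre, and 2 f/- mice, which have 1 floxed and 1 deleted allele and no Cre. Every mouse therefore carried at least 1 floxed allele, Cre was shared by the mutants and the f/+ controls, and the deleted allele by the mutants and the f/- controls. Zp3-cre is driven by a zona pellucida promoter that is active in growing oocytes, so the allele is lost during oocyte growth and not before it. Isolation medium held milrinone, which keeps oocytes arrested before meiosis resumes. No source used here gives the ages of the mice. The unit is RPKM, which divides reads by the transcript's length and the library's total, and replicates are separate mice.

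In the oocyte, a mesh of actin filaments fills the cytoplasm and carries the meiotic spindle from the centre to the cortex. The formin FMN2 and the SPIRE proteins start these filaments together, on vesicles that carry RAB11, while the Arp2/3 complex starts the branched filaments of the cortex. CDC42 organises the cortical cap over the spindle, where the polar body is then extruded. These steps follow the stage sampled here, so the values are of transcripts stored before spindle migration.

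The 3 actin genes are closely alike in their coding sequence, which matters for how far their reads can be told apart. Their last 60 coding bases, stop codon included, are shown in GENCODE M21 sequence (GRCm38), with capitals at the positions where the 3 genes are not all the same.
Actb, chr5:142903798-142903857, minus strand: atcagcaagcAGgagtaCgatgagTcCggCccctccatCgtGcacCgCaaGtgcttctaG
Actg1, chr11:120346390-120346449, minus strand: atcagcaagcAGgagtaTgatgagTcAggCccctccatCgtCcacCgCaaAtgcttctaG
Actg2, chr6:83512985-83513044, minus strand: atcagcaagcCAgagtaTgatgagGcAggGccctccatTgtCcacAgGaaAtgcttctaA
In this stretch Actg1 differs from Actb at 4 positions and Actg2 at 12. Over the 1128 coding bases that can be aligned without gaps from the stop codon, Actb and Actg1 were 88.65% identical and Actb and Actg2 82.71%. Of all stretches of 50 bases in the transcript, 56.7% were found unchanged in transcripts of other genes for Actg1, 14.2% for Actb and 0% for Actg2. For Actg1 most were shared with processed pseudogenes, led by Gm12715 with 51.1% of the stretches. No source used here says how reads that match several places were counted, so the listed level of Actg1 is uncertain, and that of Actb less so. The same holds for Actr3, with 50.0% of stretches shared, nearly all with the pseudogene Gm8822 (48.5%). Actr2, Cdc42 and Cdc42ep3 shared 0.726%, 3.11% and 6.45%, and Fmn2, Spire1 and Spire2 none.

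Cdc42ep3, chosen for its fall, and Fmn2, a nucleator whose mutant and control levels overlapped, are shown with the 250 bases before their annotated starts. These bases are given 5′ to 3′ on the gene's strand (RefSeq, GRCm38.p6). Capitals mark the GC box GGGCGG on either strand, a common promoter motif.
Cdc42ep3, chr17:79355092-79355341, minus strand: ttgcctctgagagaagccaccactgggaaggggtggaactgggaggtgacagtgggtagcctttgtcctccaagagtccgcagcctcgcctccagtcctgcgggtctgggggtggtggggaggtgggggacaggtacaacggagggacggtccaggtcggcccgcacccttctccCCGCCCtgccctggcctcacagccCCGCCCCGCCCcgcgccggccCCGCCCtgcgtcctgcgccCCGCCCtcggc
Fmn2, chr1:174501575-174501824, plus strand: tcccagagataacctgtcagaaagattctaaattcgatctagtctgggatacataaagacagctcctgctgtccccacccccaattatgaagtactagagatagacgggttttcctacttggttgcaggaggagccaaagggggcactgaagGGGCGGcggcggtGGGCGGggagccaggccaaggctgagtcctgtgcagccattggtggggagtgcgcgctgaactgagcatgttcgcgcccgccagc
The Cdc42ep3 window held 5 GC boxes, a pair of which overlap, and 18 CpG dinucleotides, more than 78.3% of promoters in the table. The Fmn2 window held 2 GC boxes and 11 CpG, more than 64.5%. A GC box was present in 32.7% of 32817 promoters. Neither window held the TATA box TATAAA (12.4% of promoters) or a CArG box, the motif of serum response factor at actin genes (1.47%), and a match is a description of letters, not a binding site. Among the 7 members with an entry in the table, Actg1 held a CArG box. Actb, Actg2 and Spire1 were not matched.

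Setdb1 itself, which checks the labels, was at 1.31 to 4.06 RPKM in the 4 mutant libraries and at 19.9 to 52.5 RPKM in the 6 control libraries, and the groups did not overlap (exact two-sided permutation test over 210 splits, p = 0.0047619, the smallest this design can give). All 12 oocyte markers were present, with a summed level of 5811 to 5936 RPKM in mutants and 5707 to 7395 in controls. One of them, Nobox, differed (274 ± 25.5 against 205 ± 21.3, limma adjusted p = 0.023), which is 8.33% of the 12, beside 5.33% of all genes. The call was lost on leaving out any of mutant replicates 1 and 2 or f/+; Zp3-cre replicates 1 and 4 (limma adjusted p 0.054 to 0.076). It was also lost with no filter on level and with the spread without a trend (limma adjusted p 0.066 to 0.124). Nobox passed against f/+; Zp3-cre (limma adjusted p = 0.0090) and not against f/- (0.18). Zp1 passed against f/- alone (-0.45, limma adjusted p = 0.019). Granulosa and cumulus markers summed to 78.1 to 112 RPKM in mutants and 76.1 to 104 in controls, and 7 of their 12 had a mean of at least 0.5. The spacing of low values put the libraries at about 45.7e6 to 72.6e6 reads, so approximate read numbers can be given for low genes. The library f/- replicate 2 stood apart in several members, as the highest of the controls for Actb, Actg1, Actg2 and Spire1, and its weight is given beside the results it moves most.

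The members differed widely in level. Spire1 had the highest mean over the 10 libraries at 66.6 ± 12.1 RPKM (SD, n = 10), followed by Fmn2 (48.9 ± 3.76) and Cdc42 (48.9 ± 9.44). Actr3 (27.0 ± 4.22), Actb (27.0 ± 5.74) and Actr2 (25.3 ± 3.80) lay close together, within their spread. Actg2 (3.14 ± 6.68), Cdc42ep3 (2.93 ± 2.26) and Spire2 (2.37 ± 0.442) lay lower, and Actg1 was lowest at 0.378 ± 0.159. RPKM is a level per length, so Spire1 stood well above its paralogue Spire2 in every library.

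**Figure D1:**
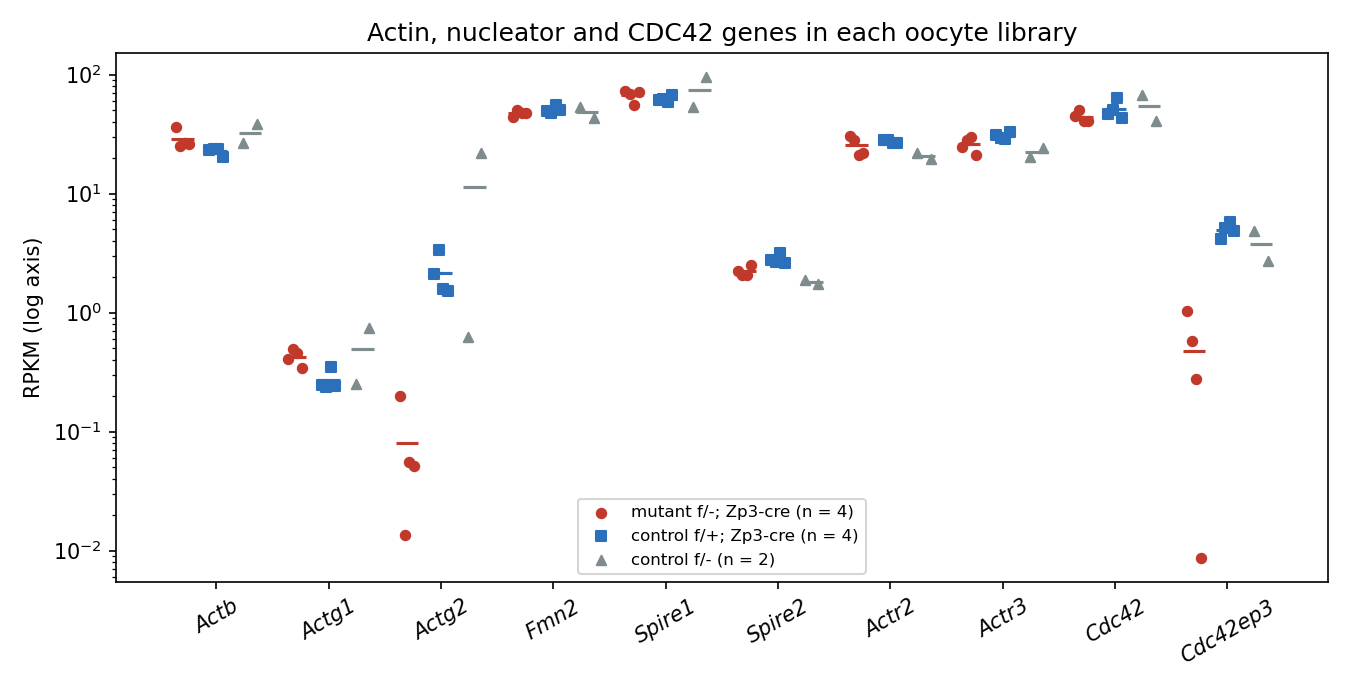
RPKM on a log axis of the 10 genes in each of the 10 libraries, 1 point per library, 1 colour per genotype group and a bar at each group mean. Mutant points lie under all control points for Actg2 and Cdc42ep3, and overlap the control points for the other genes.

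Cdc42ep3 encodes a small effector that binds active CDC42 and acts on septins and actin. Its level was 1.04, 0.579, 0.279 and 0.00867 RPKM in mutant replicates 1 to 4. In the controls it was 4.12, 5.15, 5.73 and 4.82 RPKM in f/+; Zp3-cre and 4.81 and 2.72 in f/-. The highest mutant lay below the lowest control, and the mutants themselves differed widely. The mean was 0.476 ± 0.441 RPKM (SD, n = 4) against 4.56 ± 1.04 (n = 6), which is 10.4% of the control level and a difference of -2.46 on the log2(RPKM + 0.5) scale. The mutant values rest on about 143, 74, 34 and 1 reads and the control values on about 447 to 774. Of its exonic bases, 8.14% (188) overlap Gm17315, a noncoding gene annotated on the opposite strand, and the libraries do not mark strand. In pools of whole oocytes, fewer oocytes that hold a transcript and less of it per oocyte cannot be told apart.

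Actg2 encodes the gamma actin of smooth muscle. It was at 0.199, 0.0135, 0.0557 and 0.0519 RPKM in mutant replicates 1 to 4. The f/+; Zp3-cre controls had 2.13, 3.34, 1.57 and 1.53 RPKM, and the f/- controls 0.629 and 21.9. All mutants lay under all controls, and f/- replicate 2 was far above every other library. The mean was 0.0799 ± 0.0813 RPKM against 5.18 ± 8.23, or 1.54% of the control level. Without f/- replicate 2 the control mean was 1.84 ± 0.994 (n = 5) and the mutant mean 4.34% of it, with the log2 difference moving from -2.47 to -1.91. Mutant values rest on about 1 to 16 reads, and control values on about 38 to 295 outside f/- replicate 2, which had about 2117.

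Markers of smooth muscle were read beside Actg2. Without Actg2, 8 of the 10 markers were below 0.5 RPKM in every library, among them Acta2, Des, Lmod1 and Smtn. The sum of the 10 was 17.9 to 24.4 RPKM in mutants and 22.2 to 28.9 in controls, and it was carried by Myh11 and Cnn1. Myh11 gave 13.0 ± 1.69 RPKM in the mutant libraries against 17.8 ± 1.38 in controls (limma adjusted p = 0.082), with no overlap, and Cnn1 8.16 ± 2.86 and 8.02 ± 1.38 (adjusted p = 0.95). In f/- replicate 2, where Actg2 was highest, Myh11 was at 18.8 RPKM, inside the range of the other controls (16.0 to 19.0), and Cnn1 at 9.93 RPKM, above theirs (5.81 to 8.65).

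Of the 10 members, Cdc42ep3 and Actg2 had mutants below all controls, as had 3.56% of all 11338 tested genes, with 8.18% free of overlap in either direction. Both were chosen for this. The remaining 7 members that were tested showed no difference past the threshold between mutants and all controls. A limma model on log2(RPKM + 0.5), with Benjamini-Hochberg adjustment over 11338 genes and a threshold of 0.05, called 5.33% of all genes in this comparison and 0 of these 7. None of the 7 had an unadjusted p under 0.05, beside 2242 of the 11338 genes, and their adjusted p-values ran from 0.46 to 0.98. Actg1 had a mean below the minimum of 0.5 RPKM and was not tested.

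Among the nucleators, Fmn2 encodes the formin without which oocytes do not move the spindle. Fmn2 stood at 43.7, 50.5, 47.7 and 48.0 RPKM in mutants and at 49.6, 47.5, 55.0 and 50.0 in f/+; Zp3-cre, with 53.8 and 43.4 in f/-. The groups overlapped throughout, and Fmn2 varied least of the 10 in proportion to its level. The means were 47.5 ± 2.80 and 49.9 ± 4.23 RPKM, a log2 difference of -0.07 (SE 0.10, limma adjusted p = 0.76). Its 95% interval, -0.29 to 0.15, corresponds to 0.818 to 1.11 times the control level on the scale of RPKM + 0.5.

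Spire1, a partner of FMN2, had 72.7, 68.5, 55.3 and 71.9 RPKM in mutants and 60.6, 62.7, 59.3, 66.8, 53.2 and 95.4 in the controls, the last in f/- replicate 2. The mutants lay inside the control range. The log2 difference was 0.03 (SE 0.15, 95% interval -0.29 to 0.35, limma adjusted p = 0.93), and 0.14 without f/- replicate 2. Spire2 had 2.07 to 2.54 RPKM in mutants and 1.74 to 3.15 in controls, a difference of -0.10 (SE 0.24, 95% interval -0.62 to 0.43, limma adjusted p = 0.86). The interval of Spire2 was the widest of the 7 and allows from 0.649 to 1.34 times the control level on the scale of RPKM + 0.5.

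Of the actins, Actb, the main cytoplasmic actin, was at 36.2, 25.0, 26.8 and 26.1 RPKM in mutants, at 23.1, 23.9, 23.7 and 20.4 in f/+; Zp3-cre and at 26.5 and 38.3 in f/-. All 4 mutants lay above all 4 f/+; Zp3-cre libraries but not above the f/- libraries. The log2 difference from all controls was 0.15 (SE 0.17, 95% interval -0.22 to 0.52, limma adjusted p = 0.68). Without f/- replicate 2 it was 0.26, and against f/+; Zp3-cre alone it was 0.31 (SE 0.16, adjusted p = 0.31). Actg1, the other cytoplasmic actin, was listed at 0.34 to 0.494 RPKM in mutants and 0.236 to 0.743 in controls, on about 22 to 105 reads. The 0.743 is f/- replicate 2, and without it the controls ran from 0.236 to 0.352 RPKM (0.266 ± 0.0486, n = 5), the mutant mean was 160% of theirs, and 1 mutant lay within their range. The log2 ratio of Actb to Actg1, with 0.5 RPKM added to each, was 4.96 ± 0.278 in mutants and 4.97 ± 0.136 in controls (exact two-sided permutation test over 210 splits, p = 0.97619). Listed Actg1 was below the added 0.5 RPKM in every library but f/- replicate 2. The added value was thus the larger part of the divisor in those libraries, and the ratio says little of Actg1.

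Actr2 and Actr3 encode the actin-related subunits that form the start of each branch in the Arp2/3 complex. Actr2 was at 30.4, 28.3, 21.1 and 21.9 RPKM in mutants, 26.7 to 28.2 in f/+; Zp3-cre and 22.0 and 19.4 in f/-. Actr3 was at 24.7, 28.0, 29.8 and 21.3 RPKM in mutants, 28.7 to 33.0 in f/+; Zp3-cre and 20.3 and 24.3 in f/-. For both genes the mutants overlapped the controls, and both f/- values lay below the f/+; Zp3-cre values. The differences from all controls were 0.01 (SE 0.15, 95% interval -0.32 to 0.34) for Actr2 and -0.09 (SE 0.16, 95% interval -0.42 to 0.24) for Actr3, with limma adjusted p-values of 0.98 and 0.80.

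Cdc42 was at 44.8, 50.3, 40.9 and 40.5 RPKM in mutants, at 47.0, 50.1, 63.4 and 43.5 in f/+; Zp3-cre and at 67.4 and 41.0 in f/-. The groups overlapped, and 2 control libraries, 1 of each genotype, were above all others. The log2 difference was -0.22 (SE 0.15, 95% interval -0.54 to 0.10, limma adjusted p = 0.46), the most negative of the 7. The table holds 2 Cdc42 transcripts, and the ratio of the lesser to the major one was 0.538 ± 0.111 in mutants and 0.473 ± 0.0893 in controls, an overlap. Cdc42 thus kept 40.5 RPKM or more in every mutant library, in which Cdc42ep3 was at 1.04 RPKM or less.

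**Figure D2:**
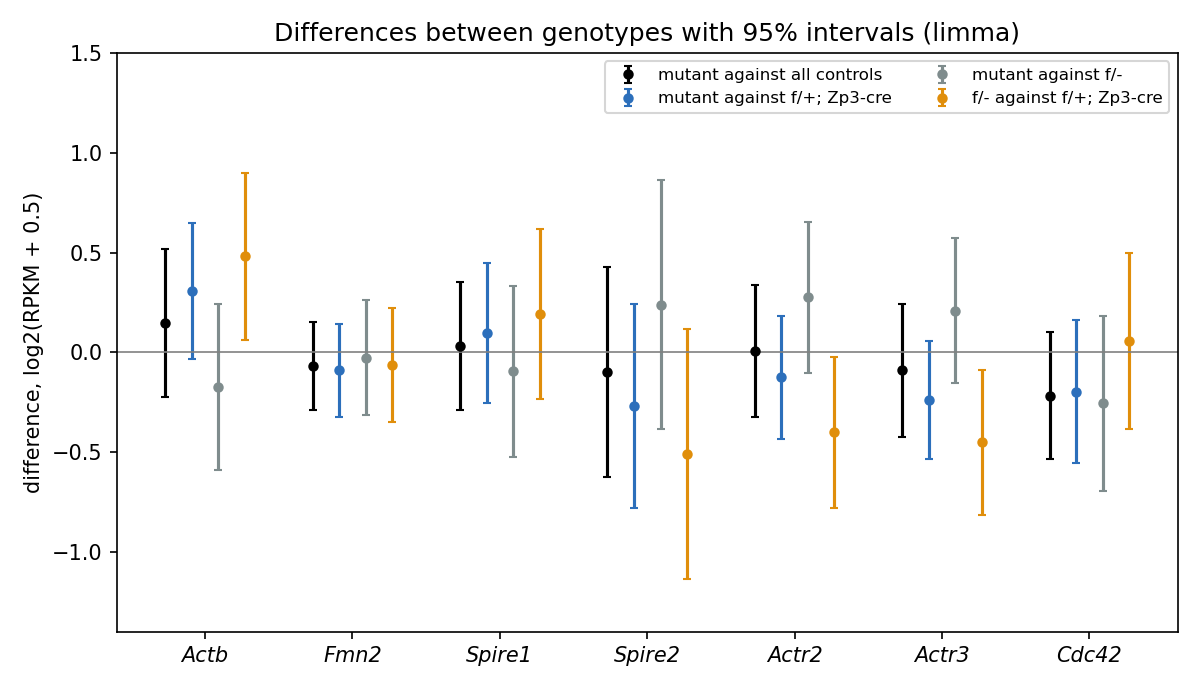
Log2 differences with 95% limma intervals for the 7 tested genes not chosen for their fall, in 4 comparisons: mutants against all controls, against f/+; Zp3-cre, against f/-, and f/- against f/+; Zp3-cre. The intervals of mutants against all controls include 0 for each of the 7 genes, and those of Actb, Actr2 and Actr3 between the 2 control genotypes do not.

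The outcome was the same against each control genotype, comparisons that share the mutant libraries. Against f/+; Zp3-cre, 4.89% of all genes and 0 of the 7 members passed, with limma adjusted p-values of 0.31 to 0.80. Against f/-, 4.84% of all genes and 0 of the 7 passed, with adjusted p-values of 0.39 to 0.93. In both comparisons 0 of the 7 had an unadjusted p under 0.05. Of the 11338 genes, 2181 had one against f/+; Zp3-cre and 2434 against f/-. For Cdc42ep3 the log2 difference was -2.59 from f/+; Zp3-cre and -2.20 from f/-, and for Actg2 -2.15 and -3.13, given with no test. The larger Actg2 difference from f/- was carried by f/- replicate 2, and without that library it was -0.97. The Actb difference from f/- turned from -0.17 to 0.087 without it (limma adjusted p = 0.65 and 0.85).

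Between the control genotypes the members could all be tested save Actg1, since this comparison was not used to choose any. In f/- against f/+; Zp3-cre, 0.0706% of all genes (8) passed the limma threshold, and 0 of 9 members. At an unadjusted p under 0.05 stood 1584 of the 11338 genes and 3 members. Actr3 had 22.3 ± 2.84 RPKM in f/- (n = 2) and 30.5 ± 1.91 in f/+; Zp3-cre (n = 4), a difference of -0.45 (SE 0.17, limma adjusted p = 0.25). Actr2 had 20.7 ± 1.85 against 27.5 ± 0.767 (-0.40, SE 0.17, limma adjusted p = 0.33). Actb had 32.4 ± 8.29 against 22.7 ± 1.62 (0.48, SE 0.19, limma adjusted p = 0.29), with the higher value in f/- replicate 2. The Actb difference was 0.22 without that library and 0.74 without f/- replicate 1. Cdc42ep3 and Actg2 differed by -0.39 (SE 0.43) and 0.98 (SE 0.84), with limma adjusted p-values of 0.73 and 0.64. The sign for Actg2 came from f/- replicate 2, since f/- replicate 1, at 0.629 RPKM, lay below all 4 f/+; Zp3-cre libraries. Without f/- replicate 2 the Actg2 difference was -1.18, and without f/- replicate 1 it was 3.13. The Spire1 difference was -0.23 without f/- replicate 2 and 0.61 without f/- replicate 1. Each of these fits leaves 1 library in f/-, which is assumed to vary like the other groups.

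Around these members, 7 lists of actin regulators held 143 other tested genes, of which 4 were higher and 8 lower in mutants (limma adjusted p under 0.05 over all genes). That is 8.39% called, beside 5.33% of all genes, with 2.80% higher beside 3.10% and 5.59% lower beside 2.22%. The lists were made with earlier results of these data known, so these shares are a description and not independent evidence. The median log2 difference of the 143 was -0.03 and that of all genes 0.03. The mutants lay above all controls for 5 of the 143 and below for 11, beside 4.62% and 3.56% of all genes. Without Inadl, a gene whose fall was already known when its list was made, 7.75% were called. With a replicate block, 4 of the 143 (2.80%) were called, beside 3.32% of all genes, so the share was then no longer above that of all genes. In each other setting recounted at the 0.05 threshold the share called in either direction stayed above. It was 5.59% beside 2.07% with no filter and 4.23% beside 3.33% without f/+; Zp3-cre replicate 4. The share of lower genes, taken without Inadl, did not always stay above. It was 1.41% beside 1.47% without mutant replicate 1 and 1.41% beside 1.44% without mutant replicate 4. With the replicate block it was 0.704% beside 1.23%, and in the remaining settings it stayed above. None of these lists was compared with others by a test of its own.

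**Figure D3:**
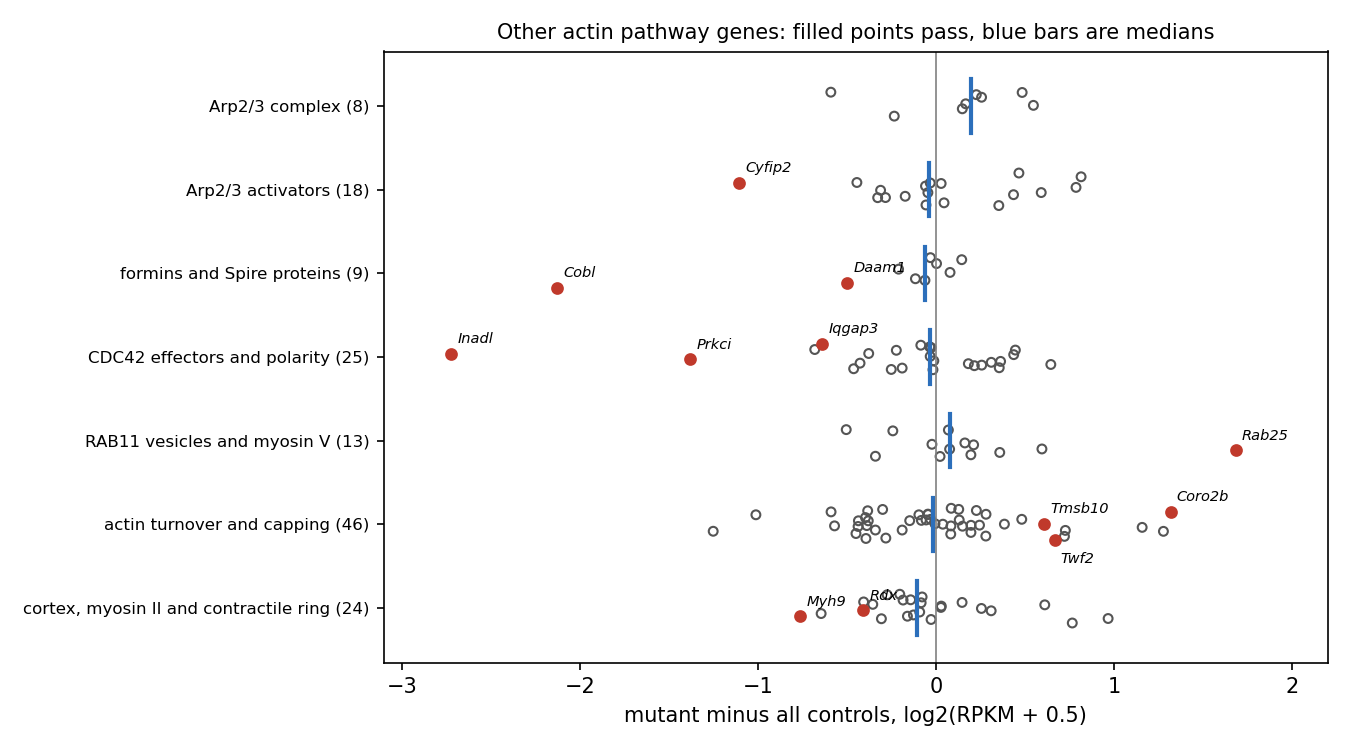
Log2 difference, mutants minus all controls, of the 143 tested genes in the 7 lists, 1 point per gene. Filled points pass the limma threshold (4 higher and 8 lower), open points do not, and the bars show list medians, which run from -0.11 to 0.20.

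Of 9 other formin and related genes, 2 were lower, with a list median of -0.06. Cobl, which encodes the actin nucleator cordon-bleu, was at 0.770, 0.695, 0.208 and 1.73 RPKM in mutants and at 5.78, 6.11, 7.07, 3.51, 6.49 and 2.41 in controls. No mutant reached the lowest control, and Cobl fell by 2.13 on the log2 scale (SE 0.36, limma adjusted p = 0.0036). Daam1, a formin that works downstream of Wnt signals, was at 31.3 ± 3.71 against 44.5 ± 5.75 RPKM, a fall of 0.50 (SE 0.13, limma adjusted p = 0.042), although the groups overlapped through f/- replicate 2 at 33.8. Fhod3 (28.4 ± 4.57 against 32.9 ± 3.97 RPKM, limma adjusted p = 0.43) did not pass.

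In the Arp2/3 complex, none of the 8 other tested subunits passed against all controls, and the median log2 difference was 0.20. An unadjusted p under 0.05 was found for 1 of the 8, beside 2242 of the 11338 genes. Arpc3 came nearest, with 49.9 ± 8.03 RPKM in mutants and 35.4 ± 4.63 in controls (limma adjusted p = 0.051). Arpc5 had 11.2 ± 3.02 against 7.66 ± 2.90 (adjusted p = 0.25) and Actr3b 0.408 ± 0.343 against 0.988 ± 0.988 (adjusted p = 0.47). Against f/+; Zp3-cre alone Arpc5 passed (0.83, limma adjusted p = 0.044), and against f/- it did not (-0.0095, adjusted p = 0.99). Of 18 genes that switch the complex on, 1 was lower. Cyfip2, a subunit of the WAVE complex, was at 6.89, 4.23, 4.07 and 5.54 RPKM in mutants and 8.54 to 19.4 in controls, with no overlap, and fell by 1.11 (SE 0.24, limma adjusted p = 0.017). The WAVE partners Abi1 (51.1 ± 11.1 against 36.4 ± 4.12 RPKM, adjusted p = 0.087) and Brk1 (28.8 ± 3.21 against 21.3 ± 3.57, adjusted p = 0.13) did not pass. Brk1 passed against f/- alone (0.72, limma adjusted p = 0.033) and not against f/+; Zp3-cre (0.30, adjusted p = 0.27).

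Among 25 other CDC42 effectors and polarity genes, 3 were lower and none was higher, with a median of -0.03. Inadl, also called Patj, a scaffold of the Crumbs polarity complex, was at 1.44, 0.619, 1.64 and 2.46 RPKM in mutants and 9.60 to 14.8 in controls, and fell by 2.72 (SE 0.26, limma adjusted p = 1.8e-05). Its groups lay far apart, and its fall was already known when the list was made, so it is no independent evidence of the list's direction. Iqgap3, a scaffold that binds active CDC42 and RAC1, was at 7.12 ± 1.59 against 11.2 ± 0.973 RPKM (-0.64, SE 0.17, limma adjusted p = 0.044). Prkci, which encodes the atypical protein kinase C of the PAR complex, was at 6.71, 5.72, 9.17 and 2.34 RPKM in mutants, at 10.6 to 14.1 in f/+; Zp3-cre, and at 11.2 and 39.5 in f/-. The mutants lay under the controls for Prkci and for Iqgap3, and Prkci fell by 1.38 (SE 0.38, limma adjusted p = 0.049).

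Of 13 genes of RAB11 vesicles and myosin V, the carriers of the FMN2 and SPIRE proteins, 1 was higher. Rab25, a RAB11 family member, was at 3.20, 5.44, 6.26 and 8.59 RPKM in mutants and 0.818 to 2.25 in controls. Every mutant exceeded every control, and Rab25 rose by 1.68 (SE 0.32, limma adjusted p = 0.0069). Myosin V genes did not pass, with Myo5a at 6.23 ± 0.885 against 9.09 ± 1.55 RPKM (adjusted p = 0.14) and Myo5b at 40.0 ± 4.02 against 51.3 ± 8.92 (adjusted p = 0.22).

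Of 46 genes for actin turnover and capping, 3 were higher and none was lower, with a list median of -0.02. Coro2b, a coronin, was at 30.8, 31.1, 33.6 and 41.3 RPKM in mutants and 9.35 to 19.5 in controls, and rose by 1.32 (SE 0.18, limma adjusted p = 0.00061). Twf2, a twinfilin that binds actin monomers and filament ends, had 19.1 ± 2.91 against 11.8 ± 1.02 RPKM (0.67, SE 0.15, limma adjusted p = 0.017). Tmsb10, a thymosin that holds actin monomers, had 30.7 ± 2.85 against 20.2 ± 3.77 (0.61, SE 0.15, limma adjusted p = 0.031). Mutants and controls did not overlap for any of the 3, though for Tmsb10 the lowest mutant (26.6) and the highest control (26.4) nearly met.

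At the cortex, 2 of 24 genes for cortical linkers, myosin II and the contractile ring were lower, with a median of -0.11. Rdx, which encodes radixin, a linker of actin to the membrane, was abundant, with 347, 310, 354 and 308 RPKM in mutants, 471 to 487 in f/+; Zp3-cre and 361 and 367 in f/-. Radixin transcripts in f/- were thus only slightly above the highest mutant, and Rdx fell by 0.41 (SE 0.11, limma adjusted p = 0.041). Myh9, a heavy chain of nonmuscle myosin II, was at 4.13 ± 0.795 against 7.37 ± 1.21 RPKM (-0.76, SE 0.20, limma adjusted p = 0.044), with the highest mutant at 5.28 and the lowest control at 5.30. Trio, an exchange factor placed in this list, had 7.71 ± 1.53 against 12.3 ± 2.00 RPKM (adjusted p = 0.060). Trio passed against f/+; Zp3-cre alone (-0.74, limma adjusted p = 0.043) and not against f/- (-0.45, adjusted p = 0.29).

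**Figure D4:**
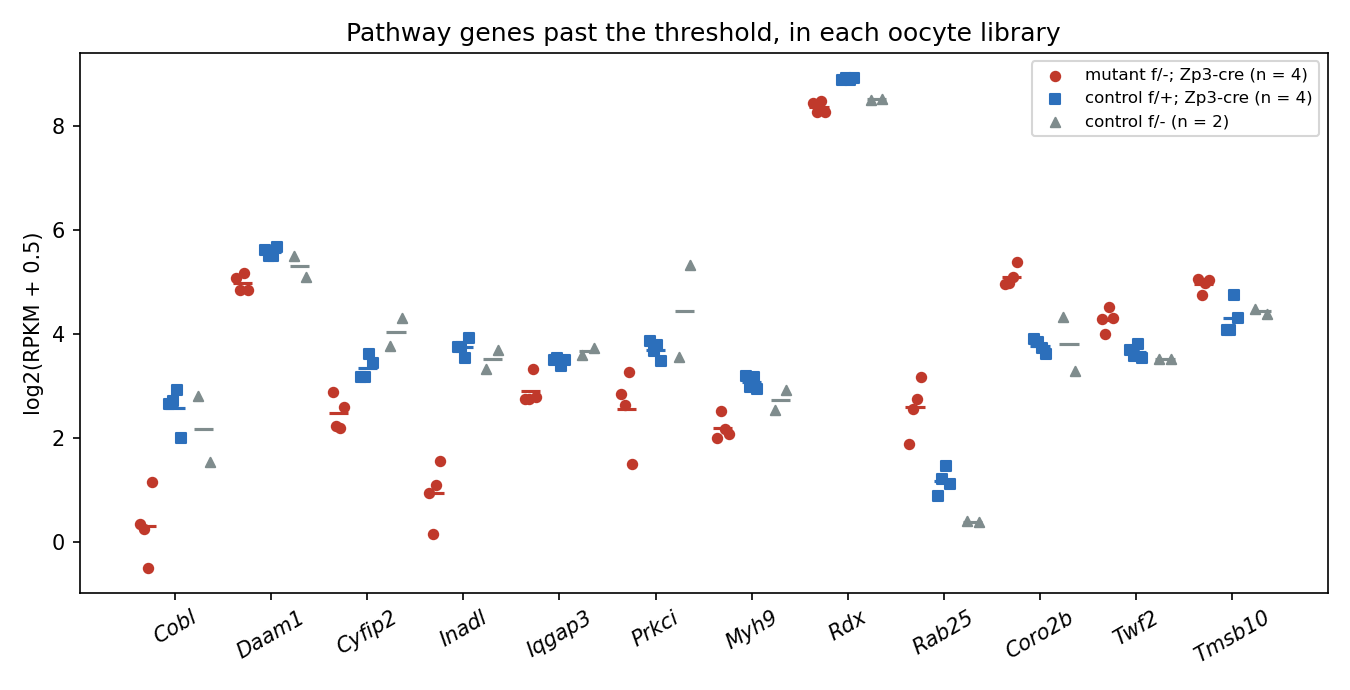
Level of the 12 called list genes in each library on the log2(RPKM + 0.5) scale, 1 point per library, coloured by genotype group, with a bar at each group mean. The 8 lower and 4 higher genes are shown, and the mutant points of Daam1 overlap the control points.

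These 12 calls differed in how firmly they stood. Cobl, Inadl, Rab25 and Coro2b kept their call in each of 21 alternative analyses, which include leaving out each library, and Cyfip2 and Twf2 in 19. Cyfip2 and Twf2 lost it without mutant replicate 3 (limma adjusted p = 0.054 and 0.062). Daam1, Iqgap3 and Prkci lost it on leaving out any library other than mutant replicate 3 or f/- replicate 2, with adjusted p-values of 0.058 to 0.107, 0.060 to 0.109 and 0.054 to 0.136. Rdx lost it without any library other than the 2 of f/- (0.062 to 0.112), Myh9 other than these and mutant replicate 2 (0.090 to 0.115), and Tmsb10 other than these, mutant replicate 2 and f/+; Zp3-cre replicate 3 (0.072 to 0.086). Other settings also ended calls: no filter and the spread without a trend for Daam1, Prkci, Rdx and Tmsb10, quantile normalization for Rdx and Tmsb10, summed rows for Iqgap3, Prkci and Myh9, and pseudocounts of 0.1 and 2 for Prkci. The replicate block ended the calls of 8 of the 12. Over these settings the limma adjusted p of lost calls reached 0.106 for Daam1, 0.149 for Prkci and 0.161 for Rdx. Against each control genotype taken alone, Cobl, Inadl, Cyfip2, Rab25, Coro2b and Twf2 passed in both. Daam1, Myh9, Rdx and Tmsb10 passed against f/+; Zp3-cre and not against f/-, and Prkci the reverse, differences that were not tested themselves. Iqgap3 passed against neither (limma adjusted p = 0.093 and 0.066). Without f/- replicate 2, Prkci (adjusted p = 0.30), Cyfip2 (0.051), Coro2b (0.061) and Twf2 (0.094) no longer passed against f/-. Without f/- replicate 1, Cobl (0.18) and Twf2 (0.052) did not.

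Genes whose level followed the members across the 10 libraries are given as a description, since libraries of 1 genotype share it. With Fmn2, the highest Pearson correlations on the log2(RPKM + 0.5) scale were those of Ndufb5, a mitochondrial complex I subunit gene (r = 0.96, n = 10), Wfdc3 (0.94) and Mettl5 (0.94). The Ndufb5 level was 29.0 ± 6.15 RPKM in mutants and 33.9 ± 12.8 in controls. With Cdc42ep3 they were those of Rbm12b1 (0.97), Homer2 (0.97) and Trp53bp1 (0.97), the last encoding a DNA damage response protein. Homer2 gave 1.32 ± 0.574 RPKM in the mutant libraries against 4.33 ± 0.799 in controls, and Trp53bp1 at 8.01 ± 1.19 and 12.8 ± 0.581.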

How the data were processed

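RNA-seq covered oocyte pools of 10 mice. Per the labels' protocols, a NuGen Ovation system amplified the cDNA and a TruSeq DNA kit gave the libraries, so strand is not marked. STAR, bcl2fastq 1.8.3 and the build mm10 appear in the submitters' processing notes. The deposited values are RPKM of 34768 RefSeq transcripts. No source used here names the counting tool. RPKM holds no read totals. Totals and read numbers were estimated from the spacing of low values and are approximate, since 72.3% to 74.9% of low values lay within 0.1 of a whole read.

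The row with the highest mean stood for each symbol. Differences were tested with limma 3.58.1 (R 4.3.3) on log2(RPKM + 0.5), which understates changes of low genes, with an empirical Bayes trend, over the 11338 genes whose mean reached 0.5 RPKM. Mutants against all controls had 2 levels. Other comparisons used 3 groups that share 1 estimate of the spread. On simulated data for the 11338 genes, mutants against all controls gave 162 calls, 11 of them wrong, with 56% recovery of log2 changes of size 1 and 95% of size 2. Low genes had their means raised in the simulation, and its noise was normal and independent. These rates may therefore not hold for low genes or for a library as far apart as f/- replicate 2. All adjusted p-values are from limma.

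Named genes were the members, the 3 other genes of each list with the smallest p, and the 3 tested genes most correlated with Fmn2 and with Cdc42ep3, predicted genes and small RNAs left out. One further list is not reported here. Members and lists were chosen with earlier results of these data known. Alternatives covered the pseudocount, filter, scaling, row choice, spread estimate, library weights, replicate block, threshold and each library left out.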

Additional observations from a re-analysis of the deposited data

Results flagged for a closer look

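In 6 of 30 checks, 1 library lay far from the rest of its group for a member. For separate groups of normally spread values, chance gives about 1 in 20. These checks share libraries, with f/+; Zp3-cre also counted among all controls, so the rates cannot be compared. The library f/- replicate 2 accounts for 4 of the 6 flagged checks, all among the 6 controls. It had 38.3 RPKM of Actb (others 20.4 to 26.5), 0.743 RPKM of Actg1 (others 0.236 to 0.352), 21.9 RPKM of Actg2 (others 0.629 to 3.34) and 95.4 RPKM of Spire1 (others 53.2 to 66.8). Mutant replicate 1 had 36.2 RPKM of Actb, with the other mutants at 25.0 to 26.8. In f/+; Zp3-cre replicate 3, Actg1 was at 0.352 RPKM, with 0.236 to 0.247 in the others of that genotype, values that rest on few reads.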

How the results depend on the processing

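None of the 7 tested members passed the threshold against all controls in any of the alternatives run. The differences of Spire1 and Actr2, near 0 in the main analysis, changed sign: Spire1 to -0.026 with median centring and -0.034 with quantile normalization, and Actr2 to -0.051, -0.090 and, with library weights, -0.14. Leaving out 1 library gave -0.024 to 0.14 for Spire1 and -0.081 to 0.091 for Actr2. The Actb to Actg1 difference, -0.01, became -0.17, 0.050 and 0.087 with pseudocounts of 0.1, 1 and 2, -0.083 with summed rows and -0.13 to 0.082 with 1 library left out. The number of genes called moved most. Against all controls, 604 became 212 at a threshold of 0.01, 399 with no filter, 1388 with library weights and 357 to 801 without 1 library. Against f/+; Zp3-cre, 554 became 198 at 0.01, 1396 with weights and 226 to 904 without 1 library. Against f/-, 549 became 159 at 0.01, 345 with no filter, 52 with weights and 275 to 1487 without 1 library. Between the control genotypes, 8 became 0 at 0.01, 25 with a pseudocount of 0.1, 21 with no filter, 25 with a filter of 2 RPKM, 17 with quantile normalization, 0 with weights and 0 to 843 without 1 library. Leaving out f/+; Zp3-cre replicate 1, 2 or 4 moved the counts against all controls (361, 357, 379) and against f/- (281, 275, 290) by over 1.5 times. Leaving out any library of f/+; Zp3-cre (226 to 349) or of f/- (904 and 902) did so against f/+; Zp3-cre, and leaving out f/- replicate 1 gave the 1487 and 843. Between the control genotypes, leaving out mutant replicate 2 or 4 gave 23 and 45, f/+; Zp3-cre replicate 1, 2 or 4 gave 0, 0 and 3, and f/- replicate 2 gave 15. The share of higher genes among calls against all controls was 58.3%, and 47.2% with median centring and 48.9% with quantile normalization. The cause of these changes was not tested.

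The replicate numbers did not pair the libraries (8 same-numbered pairs, r -0.05 to 0.03). With a replicate block, 376, 223 and 1 genes were called against all controls, against f/- and between the control genotypes, 0 members passed, and the Actb to Actg1 difference was 0.028. The block ended the calls of Cyfip2, Twf2, Daam1, Iqgap3, Prkci, Tmsb10, Rdx and Myh9 (limma adjusted p 0.050 to 0.107).

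Amplified reads from 16 oocytes are not independent molecules. Values under about 0.1 RPKM rest on few reads, and with 2 f/- mice the comparisons with that genotype are the least precise.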
